A study of Mus musculus with 6 samples.

Results

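Transcripts of 37 mitotic spindle and checkpoint genes were examined in cultured mouse neural stem cells that carried 3 genotypes of Ecrg4, the gene of a small secreted protein. The genes were selected by name, as kinases, checkpoint proteins, kinetochore parts and chromosome proteins of cell division, and their array probes were found by current or older symbol. Of the 37 genes, 36 had a probe, 1 each, among the 23466 probes of the array, and Cdc25c was not analysed here. Incenp had a value on 4 of the 6 arrays, so 35 members could be tested.

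The cells came from brains of C57BL6 mice at postnatal day 0 and were labelled Ecrg4 wt (wild type), Ecrg4 hetero (heterozygous) or Ecrg4 homo (homozygous), with 2 arrays for each label. All were untreated cultures in DMEM/F12 medium to which heparin, EGF and bFGF had been added. The labels give neither how the allele was altered nor whether the pair of arrays of a genotype stands for separate animals or cultures. The p-values therefore cover no more than array-to-array spread, part or all of which may be technical. The Ecrg4 probe read 112.9 and 154.9 in wild type, 345.5 and 373.9 in heterozygous and 1.4 and 1.3 in homozygous arrays. The homozygous label matched its probe, but the other labels did not follow the number of unaltered alleles, and every direction below refers to the arrays as labelled. Of 10 measured stem and progenitor markers, 9 lay above the background reference described next on every array, as did 5 of 9 astrocyte, 3 of 8 oligodendrocyte lineage, 2 of 10 neuron, 1 of 8 mesenchymal and mural, 0 of 5 microglial and 0 of 2 endothelial markers.

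Values are 1-colour intensities on a linear scale, with a median of 30 on each array. Probes of olfactory receptor genes, which neural stem cells are not known to use, served as a reference for background: their 95th percentile lay between 50.5 and 57.6 on the 6 arrays and is called the olfactory receptor level below. Of the 35 tested members, 30 lay above it on every array. Smc2 lay above it on 4 arrays, and Pttg1, Cenpe, Spc25 and Prc1 on none. Incenp read between 1.1 and 1.8 on the 4 arrays with a value, so no level can be given for it. The number of arrays limits the precision: the 95% interval of a member's difference between genotypes reached a median of 0.41 to 0.42 log2 units, or 1.33-fold, to either side.

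Entry into mitosis is driven by Cdk1 with B-type cyclins, which Cdc25 phosphatases switch on, and by the Polo and Aurora kinases. Chromosomes are then compacted by condensin and attached to spindle microtubules through kinetochores, and the spindle checkpoint holds back the anaphase-promoting complex and its activator Cdc20 until attachment is complete. Most genes of this machinery are transcribed together late in the cell cycle, so in a culture their transcripts follow the share of dividing cells. In the promoters of many of them a cell cycle homology region, bound by the MuvB complex, lies near CCAAT boxes, bound by NF-Y. In bulk RNA, fewer cells in division and less transcript per dividing cell cannot be told apart.

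Promoter windows of 300 bases, from 250 before to 50 after a transcription start, were available from RefSeq on GRCm38.p6 for 32 members, in 34 windows. Tpx2, Aurkb, Incenp, Smc4 and Cdc25c had none. The windows below are those of Cdc25b, the member that passed the test across all probes, of Cenpa, with the largest difference from wild type, of the checkpoint target Cdc20, and of Plk1, the member whose homozygous arrays both lay highest. Cenpa, Cdc20 and Plk1 are shown beside Cdc25b by choice after their values were seen. Capitals mark the letters of the cell cycle homology region (TTTGAA or TTCGAA) and of the CCAAT box, on either strand.
Cdc25b (chr2:131186698-131186997, plus strand): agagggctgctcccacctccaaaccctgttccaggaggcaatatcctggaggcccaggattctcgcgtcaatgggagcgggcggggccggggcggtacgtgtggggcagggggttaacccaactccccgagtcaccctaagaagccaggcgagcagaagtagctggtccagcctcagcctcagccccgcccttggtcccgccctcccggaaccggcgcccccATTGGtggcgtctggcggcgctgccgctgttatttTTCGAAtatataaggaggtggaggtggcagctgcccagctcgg
Cenpa (chr5:30666636-30666935, plus strand): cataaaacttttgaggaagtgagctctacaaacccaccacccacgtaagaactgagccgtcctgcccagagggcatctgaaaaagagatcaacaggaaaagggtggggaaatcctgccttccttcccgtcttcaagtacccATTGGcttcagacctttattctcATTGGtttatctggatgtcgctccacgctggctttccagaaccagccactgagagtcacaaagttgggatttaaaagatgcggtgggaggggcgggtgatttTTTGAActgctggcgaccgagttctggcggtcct
Cdc20 (chr4:118437294-118437593, minus strand): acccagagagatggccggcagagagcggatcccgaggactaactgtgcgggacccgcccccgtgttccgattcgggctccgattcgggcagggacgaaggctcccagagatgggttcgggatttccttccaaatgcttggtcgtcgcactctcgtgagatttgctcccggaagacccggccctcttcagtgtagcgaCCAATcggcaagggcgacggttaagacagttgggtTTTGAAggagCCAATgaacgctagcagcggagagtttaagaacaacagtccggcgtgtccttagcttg
Plk1 (chr7:122159185-122159484, plus strand): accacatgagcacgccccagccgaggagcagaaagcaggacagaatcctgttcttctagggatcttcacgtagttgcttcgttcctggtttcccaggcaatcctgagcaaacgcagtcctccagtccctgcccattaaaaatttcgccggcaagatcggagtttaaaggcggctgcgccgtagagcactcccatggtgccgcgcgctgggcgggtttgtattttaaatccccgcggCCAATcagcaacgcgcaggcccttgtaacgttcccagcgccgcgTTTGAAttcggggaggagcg

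All 4 windows held both kinds of letters within a short distance of the start. In Cdc25b, TTCGAA, which reads the same on both strands, covered bases 8 to 13 after the start, and 1 CCAAT match on the opposite strand lay at -28 to -24. Cenpa had TTTGAA at bases 17 to 22 and CCAAT matches on the opposite strand at -109 to -105 and -86 to -82. Cdc20 had TTTGAA at -18 to -13 between CCAAT matches at -53 to -49 and -8 to -4. Plk1 had CCAAT at -14 to -10 and TTTGAA at bases 31 to 36. A match describes the letters and is no evidence that a factor binds there.

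Over the members, 24 of 34 windows (70.6%) held TTTGAA or TTCGAA, against 19.2% of all 32851 windows of the same length. CCAAT was present in 25 windows (73.5%), against 37.4% of all windows, and both kinds stood together in 22 windows (64.7%), against 7.52%. Letters of E2F sites (TTCCCGC, or TTCGCGC, or else TTGGCGC, which can share letters with a reversed CCAAT) were found in 8 windows (23.5%), against 8.07% of all windows. In the windows of DNA replication genes, which act earlier in the cycle, E2F letters were present in 63.0%, CCAAT also in 63.0% and TTTGAA or TTCGAA in 22.2%. Of 13 windows of mitotic cyclins and their regulators, 30.8% held TTTGAA or TTCGAA, 84.6% CCAAT and 30.8% both kinds. E2F letters were present in 15.4% of these 13. The motif matches of the members gathered near the start: in the 25 bases after it, 26.5% of member windows held TTTGAA or TTCGAA, against 1.40% of all windows. Of the 12 genes with a window whose homozygous arrays both lay below the other 4 arrays, 6 held TTTGAA or TTCGAA, and of the other 20 members with a window 16 did. These counts are descriptions without a test.

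**Figure D1:**
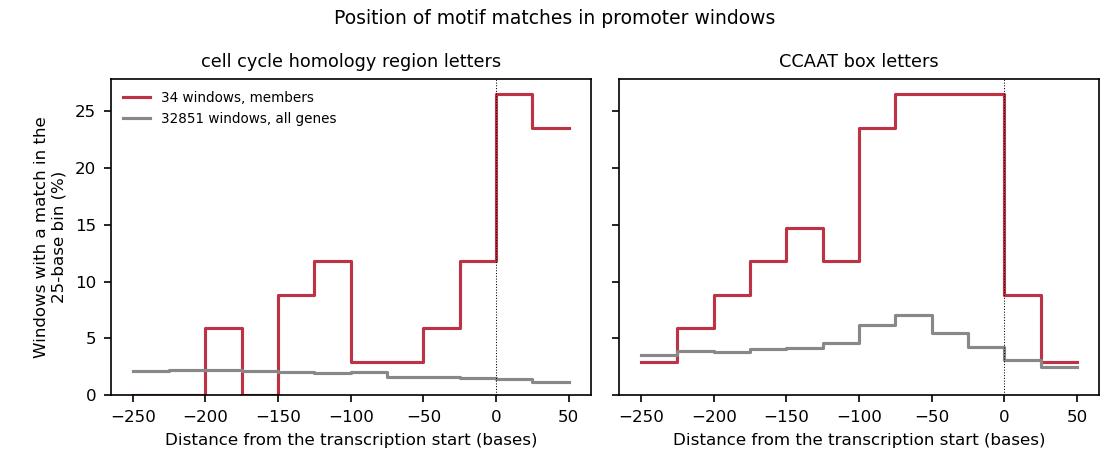
Share of promoter windows (percent) with a motif match in each 25-base bin, by distance from the transcription start (bases), for 34 member windows (red) and all 32851 windows (grey). The left panel shows TTTGAA or TTCGAA, which reached 26.5% of member windows just after the start, and the right panel CCAAT, which reached 26.5% in the bins from -75 to 0.

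Between homozygous and heterozygous arrays, 1 of 35 members passed the test across all 20434 probes: Cdc25b was lower in the homozygous arrays. It codes for a phosphatase that activates Cdk1 at mitotic entry. Its fold was 0.464 (95% interval 0.349 to 0.616, n = 2 arrays each). Over all probes 2.69% passed in this comparison (1.43% in the lower direction, against 1.26% in the higher), so 1 of 35 is close to that share. Between homozygous and wild type 0 of 35 members passed with limma, against 0.920% of all probes (0.431% higher, 0.489% lower). Between heterozygous and wild type it was also 0 of 35, against 0.749% (0.411% higher, 0.338% lower). The moderated F test of limma over the 3 genotypes called 0 members, against 2.26% of all probes, and 9 members had an unadjusted F test p under 0.05, against 20.3%. At an unadjusted limma p under 0.05, 11 members were lower and 0 higher in homozygous than in heterozygous arrays, against 8.90% and 9.25% of all probes. Between homozygous and wild type 10 were lower and 0 higher, against 9.45% and 9.58%. Between heterozygous and wild type 4 were higher and 1 lower, against 6.17% and 7.30%. Of the 30 members above the olfactory receptor level on every array, 10 were lower and 0 higher in homozygous than in heterozygous arrays. Of the 8347 such probes, 932 and 555 were. Between homozygous and wild type 8 of these members were lower and 0 higher, against 934 and 690 such probes. Between heterozygous and wild type 3 were higher and 0 lower, against 472 and 372.

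As a description, members leaned toward lower values in the homozygous arrays. Their median log2 fold change was -0.25 against heterozygous, with 30 of 35 below 0, and -0.17 against wild type, with 25 of 35 below 0. Over all probes tested the medians were 0.04 and 0.02. Most members are bright, and over the 8347 probes above the olfactory receptor level on every array the medians were -0.04 and -0.01, with 55.8% and 51.0% below 0. Quantile and cyclic loess scaling left the median against heterozygous at -0.20 in both cases, with 25 of 35 below 0, and against wild type at -0.18 and -0.16 with 22 and 21 of 35 below 0. Between heterozygous and wild type the median was 0.01, with 17 of 35 below 0, and it was -0.03 under quantile and under cyclic loess scaling.

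**Figure D2:**
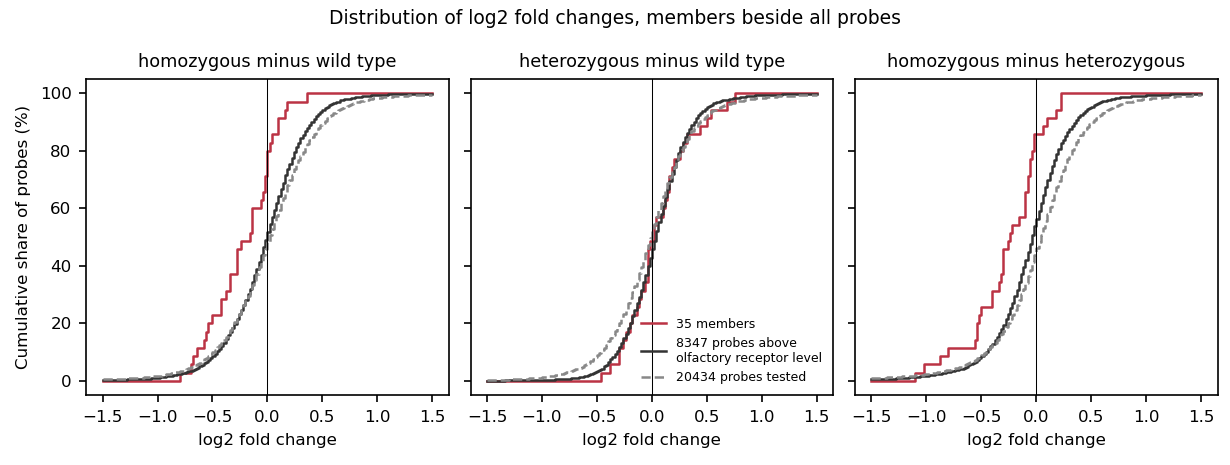
Cumulative share of probes (percent) by log2 fold change in the 3 comparisons, for the 35 members (red), the 8347 probes above the olfactory receptor level on every array (black) and all 20434 probes tested (grey, dashed). Over most of its range the member curve lies to the left of both others in the comparisons with homozygous arrays, with 30 of 35 members below 0 against heterozygous, and along them between heterozygous and wild type.

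Array by array, the members' median deviation from each gene's own mean was 0.025 and 0.085 log2 units for wild type and 0.117 and 0.161 for heterozygous. It was -0.245 in homozygous array 1 and -0.074 in homozygous array 2. Both homozygous arrays lay below the other 4, but homozygous array 1 was lower than homozygous array 2 in 28 of 35 members, by a median of 0.17. Over all probes tested it was lower in 58.2%, by a median of 0.05. The members' step between arrays of 1 genotype is as large as their median difference between homozygous and wild type. Over all probes tested the medians of the arrays spanned -0.070 to 0.065. Without homozygous array 1 the members' median against heterozygous was -0.18, and without homozygous array 2 it was -0.36.

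**Figure D3:**
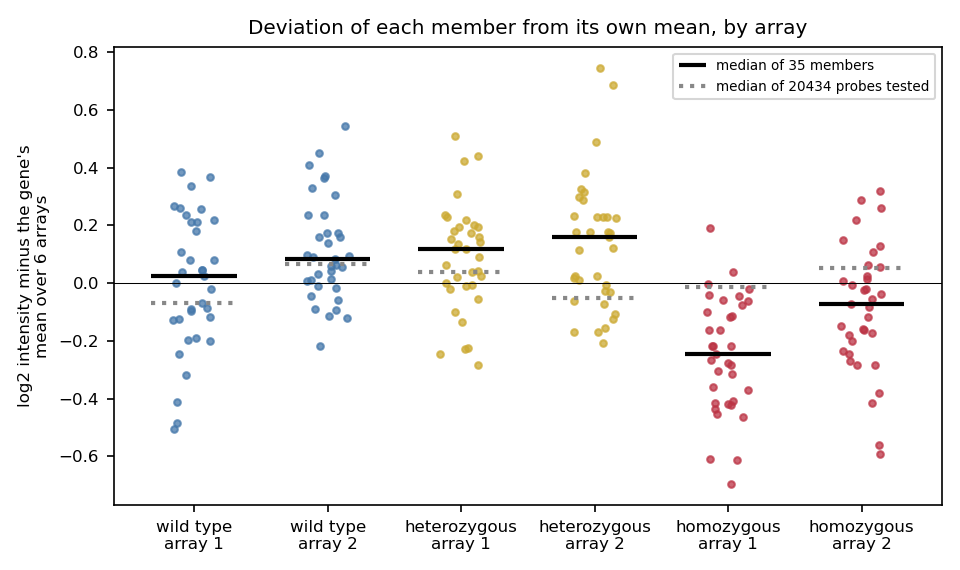
Deviation of each of 35 members from its own mean over 6 arrays (log2 units), by array. Points are genes, black bars the members' median and dotted bars the median of all 20434 probes tested. The members' median is lowest in homozygous array 1 (-0.245) and next lowest in homozygous array 2 (-0.074), where single genes spread on both sides of 0.

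Both homozygous arrays lay below all 4 others for 13 of 35 members (37.1%), against 13.2% of all probes. Among the 30 members above the olfactory receptor level on every array it was 11 (36.7%), against 20.2% of such probes. The 13 were Cdc25b, Nek2, Aurka, Cdc20, Mad2l1, Pttg1, Cenpa, Cenpe, Cenph, Ndc80, Ncapd2, Ncaph and Smc4. Plk1 was the 1 member with both homozygous arrays above the other 4, against 16.2% of all probes. Both heterozygous arrays were highest for 7 members, Cdc25b, Aurka, Cdk1, Bub1b, Birc5, Anln and Nusap1, against 11.1% of all probes. Of probes above the olfactory receptor level on every array the share was 15.8%. Both wild-type arrays were highest for 5, Cenpa, Cenpe, Cenph, Mad2l1 and Smc2, against 12.2%. By genotype means, the homozygous arrays were lowest for 22 members (62.9%), against 31.7% of all probes and 39.3% of those above the olfactory receptor level on every array. The wild-type arrays were lowest for 8 members (22.9%, against 33.5% of all probes) and the heterozygous arrays for 5 (14.3%, against 34.9%). Of probes above the olfactory receptor level on every array, 34.8% and 25.9% were lowest in these genotypes. Homozygous and heterozygous arrays did not overlap, homozygous lower, for 20 members, against 25.9% of all probes, and homozygous higher for 2, against 28.7%. For homozygous against wild type the counts were 16 lower, against 24.8%, and 1 higher, against 25.7%. For heterozygous against wild type 9 were higher, against 21.0%, and 8 lower, against 24.5%. Among the 30 members above the olfactory receptor level on every array, homozygous was lower than heterozygous without overlap for 18 and higher for 1. Of the 8347 such probes, 3130 and 2111 were. The counts against wild type were 13 lower and 1 higher, against 2573 and 2192 probes. Heterozygous was higher than wild type for 8 and lower for 5, against 2290 and 1997 probes.

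**Figure D4:**
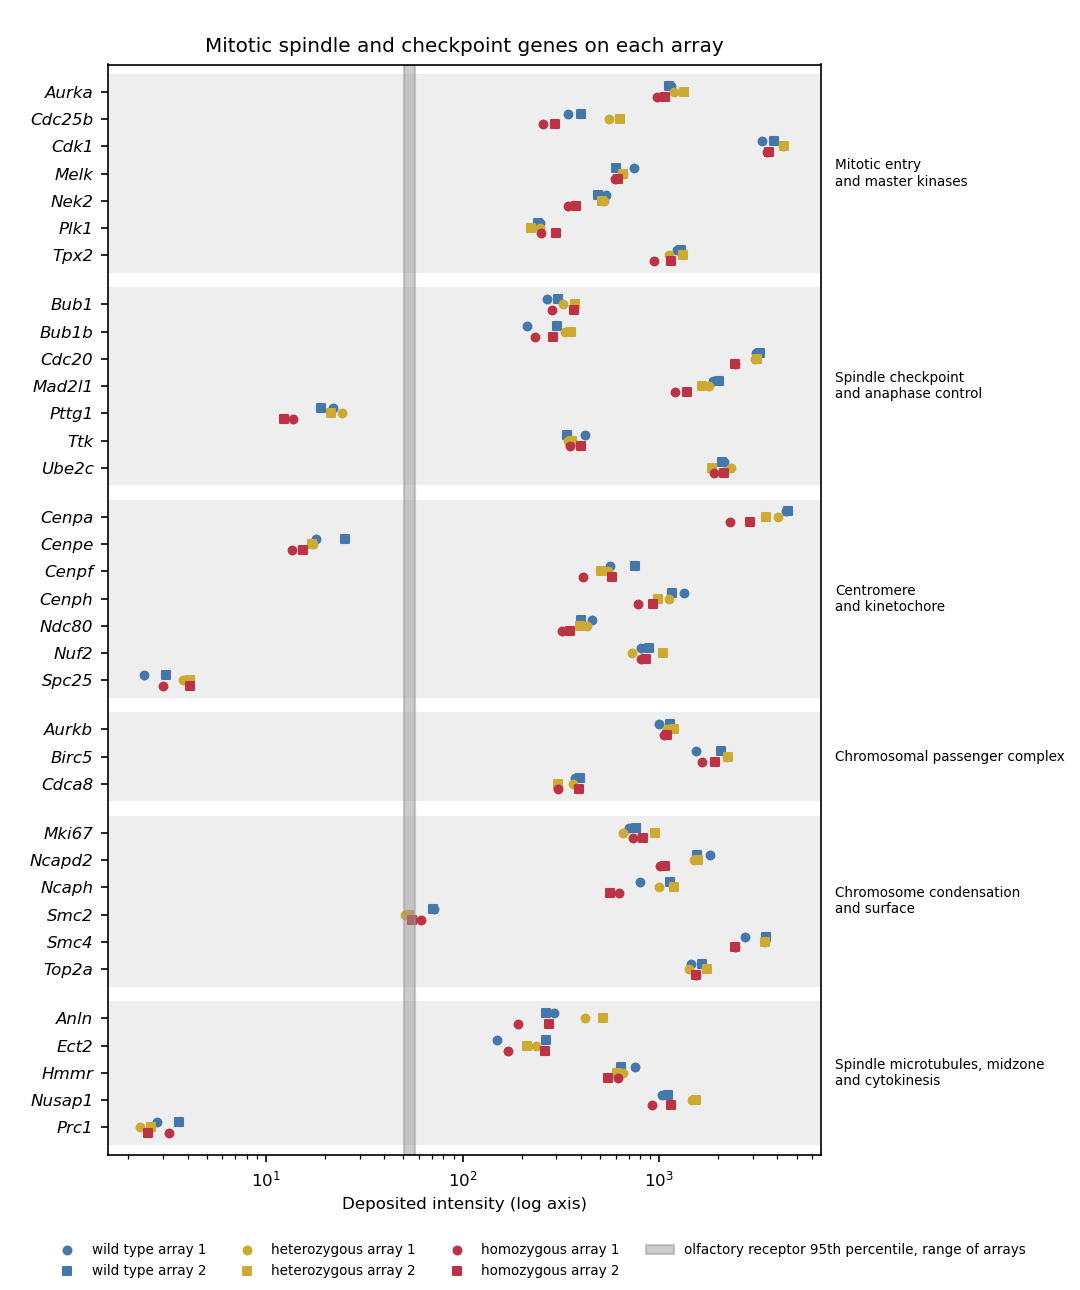
Deposited intensity (log axis) of each tested member on each array, coloured by genotype, circles for array 1 and squares for array 2, with genes grouped by role. The vertical grey band is the range of the olfactory receptor level over the arrays, and Pttg1, Cenpe, Spc25 and Prc1 lie to its left. Levels of different genes come from different probes and are not comparable.

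Among the kinases and phosphatases of mitotic entry, Cdc25b varied most. It read 342.3 and 401.1 in wild type, 557.9 and 630.5 in heterozygous and 256.9 and 294.4 in homozygous arrays. The 3 genotypes did not overlap, with heterozygous highest and homozygous lowest. Cdc25b fell by 1.11 ± 0.17 (SE) on the log2 scale from heterozygous to homozygous (limma adjusted p = 0.0319). The difference of heterozygous from wild type was 0.68 ± 0.17 (adjusted p = 0.199) and that of homozygous from wild type -0.43 ± 0.17 (adjusted p = 0.246), and neither passed. The call was lost without any 1 of the 4 arrays compared. Its adjusted p was 0.111 and 0.176 when heterozygous array 1 or 2 was dropped, and 0.216 and 0.177 when homozygous array 1 or 2 was dropped. The value was 0.0533 with blank cells filled and 0.0537 with the array number as a block.

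Nek2, a kinase that separates centrosomes, read 538.4 and 487.0 in wild type, 523.0 and 511.6 in heterozygous and 344.7 and 379.3 in homozygous arrays. The homozygous arrays lay below all others, while wild type and heterozygous overlapped. Its log2 difference of homozygous from heterozygous was -0.52 ± 0.15 (limma adjusted p = 0.144) and from wild type -0.50 ± 0.15 (adjusted p = 0.166). Aurka, the Aurora kinase of spindle poles, read 1153.6 and 1119.4 in wild type, 1184.0 and 1332.3 in heterozygous and 974.8 and 1069.5 in homozygous arrays. Tpx2, the protein that activates it on the spindle, read 1232.6 and 1284.7, 1123.2 and 1318.9, and 938.0 and 1147.3 in the same order. For Aurka the genotypes were ordered without overlap, and for Tpx2 homozygous array 2 lay within the heterozygous range. Their differences of homozygous from heterozygous, -0.30 ± 0.15 and -0.23 ± 0.17, did not pass.

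Cdk1, the kinase at the centre of mitotic entry, differed by 0.00 ± 0.15 between homozygous and wild type, with a fold between 0.780 and 1.29 by its 95% interval. It read 3337.8 and 3832.9 in wild type, 4289.7 and 4305.0 in heterozygous and 3550.4 and 3613.0 in homozygous arrays. The heterozygous arrays were highest, by 0.26 ± 0.15 over wild type (limma adjusted p = 0.459). Plk1, the Polo kinase, was higher in homozygous than in heterozygous arrays by 0.22 ± 0.16 (adjusted p = 0.521), and Melk differed by -0.11 ± 0.16 (adjusted p = 0.777). The group therefore held members on either side of 0, with 6 of 7 below 0 against heterozygous and a median of -0.26.

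In the spindle checkpoint and its target, the anaphase-promoting complex, 0 of 7 members passed in a comparison. Mad2l1, the checkpoint protein that binds Cdc20, read 1888.3 and 2014.5 in wild type, 1794.0 and 1652.9 in heterozygous and 1204.7 and 1385.6 in homozygous arrays. The genotypes were ordered without overlap, wild type highest. Its log2 difference of homozygous from wild type was -0.59 ± 0.15 (limma adjusted p = 0.133), a fold of 0.662 with a 95% interval of 0.511 to 0.859. Cdc20 itself read 3121.9 and 3264.6, 3086.8 and 3139.2, and 2444.5 and 2445.7 in the same order of genotypes. The homozygous arrays nearly coincided and lay below the others, with differences of -0.38 ± 0.14 from wild type (adjusted p = 0.216) and -0.35 ± 0.14 from heterozygous (adjusted p = 0.261).

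Pttg1, the securin that anaphase destroys, had the next smallest adjusted p after Cdc25b, 0.0631, for a difference of -0.81 ± 0.16 between homozygous and heterozygous. It read 22.0 and 19.1 in wild type, 24.5 and 21.4 in heterozygous and 13.7 and 12.4 in homozygous arrays. All 6 values lay under the olfactory receptor level, so the size of this difference is uncertain. Bub1b, a kinase-like subunit of the checkpoint complex, read 212.7 and 301.8 in wild type, 331.0 and 354.5 in heterozygous and 235.0 and 287.7 in homozygous arrays. Its arrays of wild type and homozygous overlapped, and heterozygous lay above both (0.44 ± 0.22 over wild type, limma adjusted p = 0.421).

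The remaining genes of this group differed less. The checkpoint kinase Bub1 was higher in both heterozygous than in both wild-type arrays, by 0.28 ± 0.19 (limma adjusted p = 0.529). Between homozygous and wild type Bub1 differed by 0.18 ± 0.19, and the checkpoint kinase Ttk by 0.00 ± 0.17. Ube2c, the ubiquitin-conjugating enzyme of the anaphase-promoting complex, differed by -0.06 ± 0.17, and by 0.03 under quantile and cyclic loess scaling. The limma adjusted p-values of Bub1, Ttk and Ube2c between homozygous and wild type lay between 0.640 and 0.992.

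Among 7 centromere and kinetochore genes, 6 were below 0 against wild type and 7 below 0 against heterozygous, with medians of -0.42 and -0.25, and 0 passed. The difference of Nuf2 from heterozygous, -0.07 ± 0.21, turned to 0.04 and 0.01 under quantile and cyclic loess scaling. Cenpa, the histone variant that marks centromeres, read 4437.6 and 4544.7 in wild type, 4018.7 and 3494.1 in heterozygous and 2304.2 and 2887.0 in homozygous arrays. The genotypes were ordered without overlap. The log2 difference of homozygous from wild type was -0.80 ± 0.18 (limma adjusted p = 0.102), a fold of 0.574 with a 95% interval of 0.428 to 0.770, and that from heterozygous was -0.54 ± 0.18 (adjusted p = 0.182). Cenph, a subunit of the inner kinetochore, showed the same order, with 1337.1 and 1159.4, then 1127.4 and 986.7, then 779.1 and 930.0. Its difference from wild type was -0.55 ± 0.17 (adjusted p = 0.179).

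The outer kinetochore was measured through the microtubule-binding NDC80 complex and the motor Cenpe. Ndc80 differed by -0.34 ± 0.15 between homozygous and wild type, with the homozygous arrays below the other 4. Nuf2, its partner in the same complex, differed by -0.02 ± 0.21, and by 0.04 and 0.01 under quantile and cyclic loess scaling. The probe of Spc25, a further subunit, read between 2.4 and 4.1. It read 2.4 and 3.1 in wild type, 3.8 and 4.1 in heterozygous and 3.0 and 4.1 in homozygous arrays, all under the olfactory receptor level. Cenpe read 18 and 25.4, 17.3 and 17.1, and 13.5 and 15.4, also under that level on every array, with a difference of -0.57 ± 0.20 from wild type (limma adjusted p = 0.215). The large kinetochore protein gene Cenpf differed by -0.42 ± 0.23, and its homozygous and wild-type arrays overlapped. With 1 array left out the difference of Cenpf from wild type ran from -0.66 to -0.18, without homozygous array 2 and array 1. That of Cenpe was -0.82 with the first wild-type array dropped and -0.32 with the other dropped.

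The chromosomal passenger complex corrects faulty attachments and later marks the division plane. Its kinase Aurkb read 1000.6 and 1136.6 in wild type, 1094.9 and 1191.3 in heterozygous and 1063.0 and 1090.6 in homozygous arrays. The inhibitor-of-apoptosis family subunit Birc5, or survivin, read 1542.0 and 2055.6, 2207.4 and 2248.8, and 1650.5 and 1931.1. Cdca8, or borealin, read 374.5 and 395.7, 363.4 and 306.5, and 304.7 and 393.0. The homozygous arrays overlapped the wild-type arrays for each of these. Their log2 differences of homozygous from wild type were 0.01 ± 0.15, 0.00 ± 0.19 and -0.15 ± 0.19, with limma adjusted p-values of 0.971, 0.994 and 0.687. The 95% intervals of the fold were 0.783 to 1.30, 0.727 to 1.38 and 0.657 to 1.23, and differences within these intervals are not excluded by the data. Birc5 was highest in heterozygous arrays, by 0.32 ± 0.19 over wild type (adjusted p = 0.478).

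Condensin, which compacts mitotic chromosomes, was measured through its core ATPases Smc2 and Smc4 and the condensin I subunits Ncapd2 and Ncaph. Ncaph read 802.2 and 1130.0 in wild type, 1003.8 and 1193.9 in heterozygous and 621.8 and 564.5 in homozygous arrays. Ncapd2 read 1815.6 and 1566.2, 1508.2 and 1568.5, and 1007.3 and 1067.1. Smc4 read 2735.7 and 3489.3, 3453.4 and 3471.1, and 2439.0 and 2434.2. For each of these genes the homozygous arrays lay below the other 4, while wild type and heterozygous overlapped.

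The differences of homozygous from heterozygous were -0.89 ± 0.21 for Ncaph (limma adjusted p = 0.0983), -0.57 ± 0.15 for Ncapd2 (adjusted p = 0.125) and -0.51 ± 0.17 for Smc4 (adjusted p = 0.193). From wild type they were -0.68 ± 0.21, -0.70 ± 0.15 and -0.34 ± 0.17, with adjusted p of 0.173, 0.101 and 0.330. For Smc4 the latter was -0.52 with wild-type array 1 dropped and -0.17 with wild-type array 2 dropped. Smc2 ran otherwise, with 72.0 and 70.9 in wild type, 50.7 and 53.5 in heterozygous and 61.8 and 55.4 in homozygous arrays, near the olfactory receptor level. Its homozygous arrays lay above the heterozygous by 0.17 ± 0.15 (adjusted p = 0.598) and below the wild type by 0.29 (SE 0.15).

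The genes most used as proliferation markers were close between genotypes. Mki67, whose protein coats mitotic chromosomes, read 701.4 and 759.7 in wild type, 654.2 and 951.7 in heterozygous and 732.8 and 825.0 in homozygous arrays. The topoisomerase gene Top2a read 1460.7 and 1649.3, 1417.7 and 1759.0, and 1534.4 and 1532.0. In both genes the heterozygous arrays spanned the values of the other genotypes. Mki67 differed by 0.09 ± 0.21 and Top2a by -0.02 ± 0.17 between homozygous and wild type (limma adjusted p = 0.849 and 0.968), with 95% intervals of the fold of 0.744 to 1.52 and 0.742 to 1.31. The sign for Top2a turned under quantile and cyclic loess scaling, to 0.04 and 0.05.

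Among genes of spindle microtubules and cytokinesis, Anln and Nusap1 were highest in heterozygous arrays. Anln, the anillin that organises the contractile ring, read 290.6 and 267.2 in wild type, 421.8 and 521.2 in heterozygous and 191.9 and 276.1 in homozygous arrays. Nusap1, which bundles spindle microtubules around chromosomes, read 1030.2 and 1107.9, 1463.9 and 1540.7, and 921.1 and 1151.8. In both, wild type and homozygous overlapped and heterozygous lay above. The log2 difference of homozygous from heterozygous was -1.03 ± 0.22 for Anln (limma adjusted p = 0.0764) and -0.54 ± 0.17 for Nusap1 (adjusted p = 0.167). Heterozygous exceeded wild type by 0.75 ± 0.22 and 0.49 ± 0.17, with adjusted p of 0.268 and 0.306.

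Hmmr, a spindle assembly factor, read 757.9 and 637.2 in wild type, 653.0 and 608.2 in heterozygous and 615.1 and 552.3 in homozygous arrays, and differed by -0.25 ± 0.16 between homozygous and wild type. Ect2, the exchange factor that starts the cleavage furrow, had the widest error of the members. It read 148.9 and 265.5 in wild type, 235.1 and 213.1 in heterozygous and 171.2 and 264.0 in homozygous arrays. Its wild-type arrays differed by 0.83 log2 units and its homozygous arrays by 0.62, more than the range of the genotype means (0.17). The heterozygous arrays differed by 0.14. Prc1, the midzone crosslinker, read between 2.3 and 3.6, with 2.8 and 3.6 in wild type, 2.3 and 2.6 in heterozygous and 3.2 and 2.5 in homozygous arrays. All values of Prc1 lay under the olfactory receptor level, so no direction is given.

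**Figure D5:**
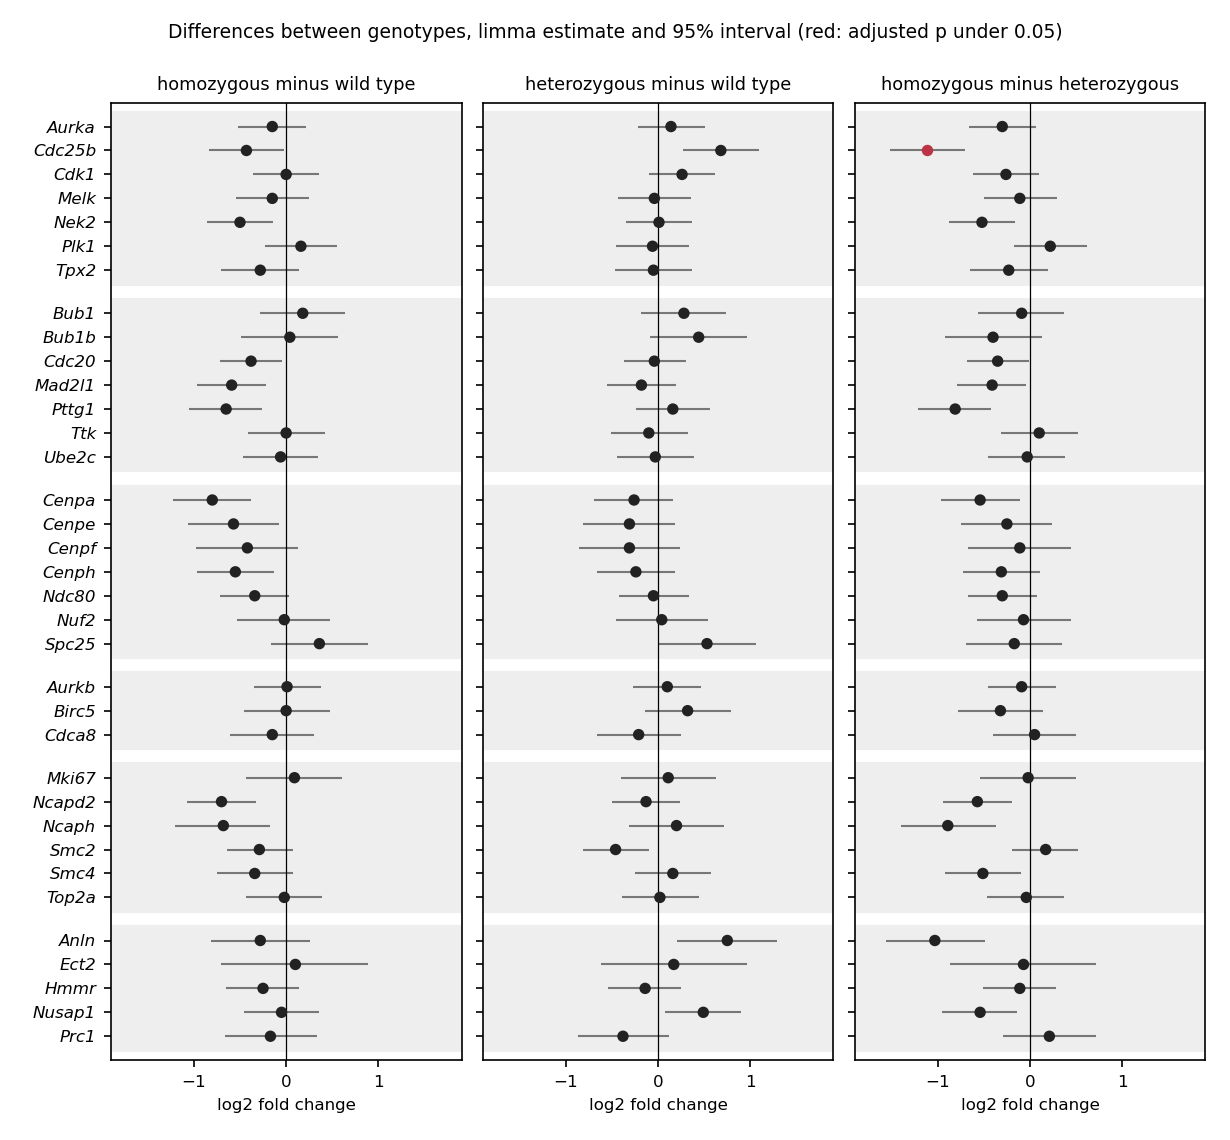
Log2 fold change of each tested member in the 3 comparisons, with the 95% interval of the limma fit (n = 2 arrays per genotype), genes grouped by role. Red marks the 1 difference with an adjusted p under 0.05, Cdc25b between homozygous and heterozygous (-1.11). Intervals of many other members cross 0.

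Between homozygous and heterozygous 2 members, Cdc25b and Anln, differed by over 2-fold (5.71%, against 4.19% of all probes) and 9 by over 0.5 log2 units (25.7%, against 18.6%). The counts for homozygous against wild type were 0, against 3.25%, and 7 of 35, against 19.8%. Between heterozygous and wild type they were 0, against 2.71%, and 3 (8.57%, against 15.9%). The 95% interval lay within 2-fold to either side for 31, 30 and 32 of the 35 members in these comparisons. More members passed under some other settings of the fit. With an intensity trend and robust prior 8 members were lower in homozygous than in heterozygous arrays: Cdc25b, Anln, Ncaph, Ncapd2, Nek2, Nusap1, Cenpa and Pttg1. The same fit called 1357 probes in all, against 549. The trend fit called, for homozygous against wild type, Cenpa, Mad2l1 and Ncapd2, among 1094 probes in all, against 188.

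Other genes of cell division gave a like picture of few calls. Of 12 mitotic cyclins and regulators tested, 1 passed between homozygous and heterozygous, against 2.69% of all probes. The list's median was -0.05 in this comparison, with 8 of 12 below 0. Against wild type it was -0.02, with 6 of 12 below 0. The gene that passed, the cyclin gene Ccnb2, fell by 1.11 ± 0.17 log2 units, with a limma adjusted p of 0.0339. Ccnb2 read 1297.7 and 1521.4 in wild type, 1650.0 and 1409.2 in heterozygous and 755.2 and 658.3 in homozygous arrays. Wild type and heterozygous overlapped and homozygous lay below both, and the difference from wild type was -0.99 ± 0.17 (adjusted p = 0.0685). Cdkn3, a phosphatase that acts on Cdk1 and that stood in a list of 10 measured CDK inhibitor and growth arrest genes, read 323.8 and 329.2, 310.2 and 300.4, and 152.1 and 172.1. It fell from wild type to homozygous by 1.01 ± 0.15 (adjusted p = 0.0471) and from heterozygous by 0.92 ± 0.15 (adjusted p = 0.0367). All other members of these lists did not pass. The list that held Cdkn3 had a median of -0.12 against wild type, with 6 of 10 below 0. Against heterozygous it was -0.23, with 7 of 10 below 0. The 1 call of that list in each of these comparisons stands beside 0.920% and 2.69% of all probes. The calls of Ccnb2 and Cdkn3 against heterozygous were lost without any 1 of the 4 arrays compared (adjusted p of 0.123 to 0.245), with blank cells filled (0.0562 and 0.0601) and with the block (0.0798 and 0.0859). The call of Cdkn3 against wild type was lost without any 1 of the 6 arrays (adjusted p of 0.0634 to 0.302), with array weights (0.0671), with blank cells filled (0.0831), with only the arrays compared (0.103) and with the block (0.113).

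With limma 0 members passed in the 3 comparisons among 16 transcription factors of the mitotic programme, 13 anaphase-promoting complex genes and 15 cohesin, shugoshin and separase genes. The same held for 27 other kinetochore genes, 25 other spindle genes and 3 other condensin subunits. At an unadjusted p under 0.05 between homozygous and heterozygous, 2 anaphase-promoting complex genes, 2 kinetochore genes, 1 transcription factor and 0 spindle, cohesin or condensin genes were lower. In the other direction 1 gene passed in each of these lists apart from the anaphase-promoting complex, with 0. Of all probes 8.90% were lower and 9.25% higher at this unadjusted limma p. The median log2 differences between homozygous and heterozygous were 0.16 for the transcription factors, -0.14 for the anaphase-promoting complex, -0.01 for cohesin, -0.01 for the other kinetochore genes, -0.14 for the other spindle genes and -0.06 for the condensin subunits. DNA replication genes, measured through 28 members, had medians of 0.04 against heterozygous and 0.11 against wild type, with 0 calls by limma. At an unadjusted limma p under 0.05, 0 were lower and 2 higher than wild type, against 9.45% and 9.58% of all probes.

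Markers of other cells also differed between these arrays, in either direction. Of 10 neuron markers tested, 3 passed as higher in homozygous than in wild-type arrays (Gap43, Elavl4 and Ina) and 0 as lower. Of all probes 0.431% and 0.489% did. The list's median was 0.44, with 3 of 10 below 0. At an unadjusted limma p under 0.05, 4 were higher and 1 lower, against 9.58% and 9.45% of all probes. Of the 10 neuron markers, 7 lay above the olfactory receptor level on no array. Between wild type and heterozygous Gap43 rose, Ina fell and 6 of 10 were below 0, with a median of -0.13. Their summed intensity was 2098 to 2118 in wild type, 4087 to 5414 in heterozygous and 5339 to 5413 in homozygous arrays. Gap43 made up most of that sum, with 1758 to 1778.9, 3782.4 to 5138.8 and 4796.1 to 4809.2.

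Of 9 astrocyte markers, Sparcl1 rose from wild type to homozygous by 4.25 ± 0.28 log2 units, with a limma adjusted p of 0.00584. It also rose from heterozygous, by 3.04 ± 0.28. Most of the list ran the other way: 5 of 9 were below 0 against wild type (median -0.05) and 7 of 9 against heterozygous (median -0.33). At an unadjusted limma p under 0.05, 1 was higher and 1 lower than in wild type, against 9.58% and 9.45% of all probes. Compared with heterozygous, 1 was higher and 4 lower, against 9.25% and 8.90%. Aqp4 fell between heterozygous and homozygous by 2.37 ± 0.37. It lay above the olfactory receptor level on only 1 array, so the size of this difference is uncertain. Between wild type and heterozygous 0 astrocyte markers passed with limma. In heterozygous arrays 6 of 9 were higher and 1 lower at an unadjusted limma p under 0.05, against 6.17% and 7.30% of all probes. The astrocyte sum was 11103 to 12722, 10911 to 11372 and 10628 to 11706 in wild-type, heterozygous and homozygous arrays.

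Of 8 mesenchymal and mural markers, Acta2 was called in all 3 comparisons, lower in heterozygous than in wild-type arrays and lowest in homozygous arrays. The list summed to 1063 to 1353, 402 to 409 and 205 to 237. Most of the fall in that sum was Acta2, which read 1229.5 and 894.8, 277.5 and 284.6, and 88 and 118.5. The other 7 markers lay above the olfactory receptor level on no array. Of 8 oligodendrocyte lineage markers, Ugt8a was lower in heterozygous arrays than in both other genotypes, and the list summed to 10342 to 11065, 12124 to 13773 and 12100 to 14421. Of 5 microglial markers, P2ry12 was called higher in homozygous arrays than in both others and Cx3cr1 lower in heterozygous than in wild-type arrays, with list sums of 128 to 171. Ugt8a, P2ry12 and Cx3cr1 lay under the olfactory receptor level on every array. Of 2 endothelial markers 0 were called by limma in the 3 comparisons, and the sums were 64 to 197. At an unadjusted limma p under 0.05, 1 was lower in homozygous and 2 in heterozygous than in wild-type arrays. Of all probes 9.45% and 7.30% were. The stem and progenitor markers summed to 62949 to 65567, 60008 to 63485 and 67046 to 67277, and 1 of 10, Notch1, fell between heterozygous and homozygous. The part of these differences in the values of the mitotic genes was not tested.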

How the data were processed

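Total RNA was isolated on RNeasy columns, amplified to amino allyl aRNA and coupled to a dye, per the labels' protocols, while another field names biotin. The deposited table holds a linear intensity per probe and array (1 colour). All columns share a median of 30, which points to scaling before deposition. Scanner, background correction and the rule behind blank cells: not given in the sources used here. Of 23466 probes, 20434 had a value on all 6 arrays and were tested.

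Intensities were log2-transformed without a pseudocount. The limma package (3.58.1, R 4.3.3) fitted a mean for each genotype over the 6 arrays jointly. This left 3 residual degrees of freedom, to which its prior added 3.27. Tests were two-sided, with Benjamini-Hochberg adjustment over all tested probes and a threshold of 0.05. The fit was tested on simulated data. Errors are standard errors of this fit. Array numbers in the titles were not used to pair the samples in the main fit. Deviations of same-numbered arrays from their genotype means correlated at 0.016, 0.010 and -0.076 across probes. These values show no large shared shift, but they cannot tell whether same-numbered samples were prepared together.

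Symbols came from the platform's annotation and were brought up to date through RefSeq gene names of GRCm38.p6 (12620 current, 3943 replaced, 59 ambiguous, 3 unmatched, 6841 probes unnamed here). The members and lists were chosen with earlier results of these data known. All members are named; per-array values are given for Cdc25b, the 4 of each role with the widest range of genotype means, and some others chosen after their values were seen. Genes of other lists are named where they passed. Alternatives were other scalings (median centring, quantile, cyclic loess), a pseudocount of 16, an intensity trend with robust prior, array weights, only the arrays compared, blank cells filled with the array's lowest value, a filter on dim probes (above the olfactory receptor level on 2 or more arrays), the mean of a gene's probes, the replicate block and each array left out. Those for Ccnb2 and Cdkn3 were added after seeing the data.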

Additional observations from a re-analysis of the deposited data

How the results depend on the processing

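The median log2 fold change of the members kept its sign against heterozygous and wild type in the homozygous arrays under all alternatives run, at -0.36 to -0.18 and -0.22 to -0.12 with 1 array left out. The count of members called between homozygous and heterozygous, 1, was 2 with cyclic loess, 7 with a pseudocount, 8 with an intensity trend, 4 with array weights, 5 with the dim filter, 0 with blank cells filled, 0 with the replicate block and 0 to 1 with an array left out. Between homozygous and wild type it was 5 with a pseudocount and 3 with the trend or the dim filter instead of 0, and between heterozygous and wild type 1, Cdc25b, with the trend. With the F test it was 1 with median centring, quantile or cyclic loess scaling or array weights, 7 with a pseudocount, 6 with the trend, 5 with the dim filter and 0 to 1 with an array left out. Averaging a gene's probes could not change a member's value, since each had 1 probe.

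The counts over all probes moved as well. Between homozygous and wild type, 188 became 314 (median centring), 328 (quantile), 313 (cyclic loess), 1143 (pseudocount), 1094 (trend), 89 (array weights), 59 (only the arrays compared), 88 (blanks filled), 849 (dim filter) and 1 to 224 (1 array left out). Between heterozygous and wild type, 153 became 306 (pseudocount), 400 (trend), 100 (array weights), 40 (only the arrays compared) and 18 to 340 (1 array left out). Between homozygous and heterozygous, 549 became 1376 (pseudocount), 1357 (trend), 1261 (array weights), 320 (blanks filled), 974 (dim filter) and 6 to 680 (1 array left out). The F test's 462 became 721 (median centring), 1493 (pseudocount), 1582 (trend), 791 (array weights), 266 (blanks filled), 1023 (dim filter) and 24 to 843 (1 array left out). With the replicate block the counts were 47, 51, 244 and 166. The cause of these changes was not tested.

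Of 35 members, 5 lay at or under the olfactory receptor level on at least 2 arrays, which limits the size of their differences. No setting reversed a called member.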
